A study of Mus musculus with 22 samples.

Results

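The respiratory chain subunits that the nuclear genome encodes were followed at the RNA level in normal mouse skin, in cultured MC38 cells and in MC38 tumors. Members were chosen by symbol. Every gene whose symbol starts with Nduf, Sdha, Sdhb, Sdhc, Sdhd, Uqcr, Cox4i, Cox5, Cox6, Cox7, Cox8 or Atp5 was taken, while 4 symbols with -ps and 7 assembly factors starting with Ndufaf were left out. This gave 89 of the 46882 genes in the table. They comprised 36 genes of complex I, 4 of complex II, 8 of complex III, 19 of complex IV and 15 of complex V, counting Ndufa4 and Ndufa4l2 with complex IV, where the Ndufa4 protein resides. The symbol rule also fetched 7 genes that encode no subunit. These were the complex II assembly factors Sdhaf1, Sdhaf2, Sdhaf3 and Sdhaf4, the supercomplex factor Cox7a2l, and Atp5s and Atp5sl, which are named after ATP synthase but are not established subunits.

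MC38 is a transplantable colon carcinoma line of C57BL/6 mice, and the study followed how its tumors change as they grow with and without an adaptive immune system. RNA of 16 libraries was compared here, out of 22 in the series. The 2 MC38 libraries (strain C57BL/6N, day 0) carry no genotype label, and the 2 skin libraries came from wild-type C57BL/6N mice at day 23. Tumors grew under the skin of the flank of female mice aged 8 to 12 weeks. The 3 WT tumors of day 23 and the 3 WT tumors of day 46 came from wild-type C57BL/6N hosts. The 3 tumors of day 13 and the 3 of day 23 labelled RAG1-/- came from B6.129S7-Rag1tm1Mom/J hosts, which lack mature T and B cells but keep natural killer and myeloid cells. One of 3 pieces of each tumor went to RNA, and all tumors descend from 1 cell line. The labels do not say whether replicates are separate animals or cultures, so p-values here measure only the spread between these samples.

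Oxidative phosphorylation runs through complexes I to IV, which pass electrons from NADH and succinate to oxygen. Complexes I, III and IV also pump protons out of the mitochondrial matrix, and complex V, the ATP synthase, lets them back in. The mitochondrial genome encodes a few central subunits, and all other subunits are made in the cytosol from nuclear genes and imported. Several complex IV subunits and the c subunit of complex V exist as paralogs. Cox8b, Cox7a1 and Cox6a2 are the isoforms of heart and skeletal muscle, and Cox8b and Cox7a1 are also abundant in brown fat. Cox6b2, Cox7b2 and Cox8c are known from testis, Cox4i2 from lung, and Ndufa4l2 is a hypoxia-responsive paralog of Ndufa4. Nuclear respiratory factor 1 (NRF1), the ETS factor GABP and YY1 are known to bind promoters of the ubiquitous subunits, whereas factors of the MEF2 and MyoD families act at muscle genes.

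Promoters of 5 members on which the results below turn are shown first. Cox8b and Cox7a1 are muscle paralogs that were scarce in MC38 cells, and Cox8a is the ubiquitous partner of Cox8b. Uqcr11 is a ubiquitous subunit that was lower in MC38 cells and tumors than in skin, and Atp5j is the member with the smallest p between hosts. Each window runs 5′ to 3′ from 250 bases before to 50 after the transcription start of RefSeq on GRCm38.p6. Capitals mark the letters searched on both strands: CCGGAAG for ETS factors, GCGCANGCG for NRF1, AAGATGGCG for YY1 and CAGCTG for the E-box of myogenic factors.
Cox8b (chr7:140900397-140900696, minus strand): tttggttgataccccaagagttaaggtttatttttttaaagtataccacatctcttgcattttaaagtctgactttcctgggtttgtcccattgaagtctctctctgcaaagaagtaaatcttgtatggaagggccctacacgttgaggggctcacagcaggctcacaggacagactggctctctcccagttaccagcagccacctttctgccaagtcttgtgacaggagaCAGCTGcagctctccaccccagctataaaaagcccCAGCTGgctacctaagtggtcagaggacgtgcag
Cox8a (chr19:7217567-7217866, minus strand): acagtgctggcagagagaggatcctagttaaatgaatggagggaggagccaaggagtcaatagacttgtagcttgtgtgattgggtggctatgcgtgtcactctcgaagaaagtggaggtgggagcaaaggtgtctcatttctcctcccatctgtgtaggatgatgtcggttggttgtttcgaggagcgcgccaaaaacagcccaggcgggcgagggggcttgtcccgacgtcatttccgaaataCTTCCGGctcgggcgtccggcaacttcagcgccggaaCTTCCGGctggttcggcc
Cox7a1 (chr7:30183921-30184220, plus strand): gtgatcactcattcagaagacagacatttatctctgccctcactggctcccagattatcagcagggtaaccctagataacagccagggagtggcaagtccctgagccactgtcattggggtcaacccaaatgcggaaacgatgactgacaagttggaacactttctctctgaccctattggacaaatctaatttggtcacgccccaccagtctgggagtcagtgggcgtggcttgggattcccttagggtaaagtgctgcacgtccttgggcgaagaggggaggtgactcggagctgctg
Uqcr11 (chr10:80406772-80407071, minus strand): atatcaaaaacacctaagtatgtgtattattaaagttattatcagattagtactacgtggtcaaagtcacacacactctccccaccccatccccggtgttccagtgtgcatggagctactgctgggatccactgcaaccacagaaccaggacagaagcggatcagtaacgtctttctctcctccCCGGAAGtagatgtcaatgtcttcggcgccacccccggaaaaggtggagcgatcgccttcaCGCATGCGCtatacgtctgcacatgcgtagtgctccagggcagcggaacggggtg
Atp5j (the second of its windows, chr16:84834927-84835226, minus strand): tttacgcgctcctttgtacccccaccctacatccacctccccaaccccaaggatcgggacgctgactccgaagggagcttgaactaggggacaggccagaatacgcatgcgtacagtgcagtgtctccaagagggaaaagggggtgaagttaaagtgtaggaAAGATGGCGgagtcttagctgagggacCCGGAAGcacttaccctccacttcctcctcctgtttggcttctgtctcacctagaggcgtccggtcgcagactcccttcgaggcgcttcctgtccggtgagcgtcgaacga

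The Cox8b window held E-box letters in 2 places, 1 of them just upstream of the start and the other just downstream. Cox8a held the ETS letters in 2 places. Uqcr11 held the NRF1 and the ETS letters, and the second Atp5j window the ETS and the YY1 letters, while the first Atp5j window (chr16:84835576-84835875), not shown, held none of the motifs. The Cox7a1 window held none of the motifs searched. Of the 89 members 74 had a window in the RefSeq table, 71 of them under their own symbol. The NRF1 letters stood in 22 of the 74 members, or 29.7%, against 7.03% of 27025 genes with a window. The ETS letters stood in 25.7% of the members and 9.93% of all genes, and the YY1 letters in 10.8% and 1.64%. The E-box letters stood in 8.11% of the members and 18.3% of all genes. The MEF2 letters CTATTTATA or CTAAAAATA stood in no member window and in 1.08% of all genes. By complex, the NRF1 letters stood in 50% of the 14 windows of complex V, in 25% of the 32 of complex I and in 7.69% of the 13 of complex IV, or 11.1% of 9 without the 4 tissue-restricted paralogs that had a window. These matches describe letters in the window, not binding.

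Libraries held 5589151 to 26134241 reads on genes, and 3 reads, taken as the floor, corresponded to 1.33 to 6.38 normalized counts. The reads carry no molecular identifiers that the methods mention, so floors and intervals cover counting error only. The skin libraries carried keratinocyte markers, with a sum over 8 genes of 318856 and 327521 normalized counts against 311 and 321 in MC38 cells. They also carried RNA of skeletal muscle, whose source in the tissue was not tested. The sum of 12 skeletal muscle markers was 127589 and 188006 in skin, 45.3 and 61.6 in MC38 cells, and 51.1 to 11463 in tumors. Tumors 1 and 3 labelled RAG1-/- of day 13 stood apart here, with 10560 and 11463 against 1697 or less in the other tumors. Of 7 markers of colon epithelium, all were below 5 normalized counts in the MC38 libraries, and Cdx2, Krt18 and Krt20 had no read there, so the labelled origin of MC38 was not visible in these markers. Sums of 6 lymphocyte markers were 31.9 to 148 in tumors labelled RAG1-/- and 133 to 515 in WT tumors. The Rag1 gene had 1 to 12 reads in tumors labelled RAG1-/- and 0 or 1 in WT tumors. A 3′ tag that lies outside the deleted part would check nothing, so the label is used as given.

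The 5 complexes took a few percent of the reads in every library, and a larger share in MC38 cells than in skin. Together the 82 subunit genes held 2.15% and 2.19% of the reads on genes in skin, 2.64% and 2.68% in MC38 cells and 2.24% to 2.80% in tumors. Complex V took 0.707% and 0.721% of the reads in skin, 0.884% and 0.892% in MC38 cells and 0.673% to 0.889% in tumors. Complex II, succinate dehydrogenase, took the smallest share, with 0.0771% and 0.0783% in skin, 0.11% and 0.111% in MC38 cells and 0.0849% to 0.111% in tumors. Complex I held 0.598% to 0.626% in skin, 0.66% to 0.685% in MC38 cells and 0.631% to 0.724% in tumors. For each complex both MC38 libraries lay above both skin libraries.

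In normalized counts the order was not the same. The sum over the 5 complexes was 316325 and 336111 in skin, 296996 and 303497 in MC38 cells and 259327 to 313514 in tumors. The normalized skin libraries hold more counts in total, and the median difference of all genes between MC38 cells and skin was -0.40 on the log2 scale. When libraries were set to the same total the sum in MC38 cells was 1.23 times that in skin, and with the same upper quartile 1.14 times. The direction of the summed level between skin and the other samples therefore depends on the scaling and is not reported as a change. In bulk RNA, moreover, fewer cells of a type and less RNA per cell cannot be told apart.

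**Figure D1:**
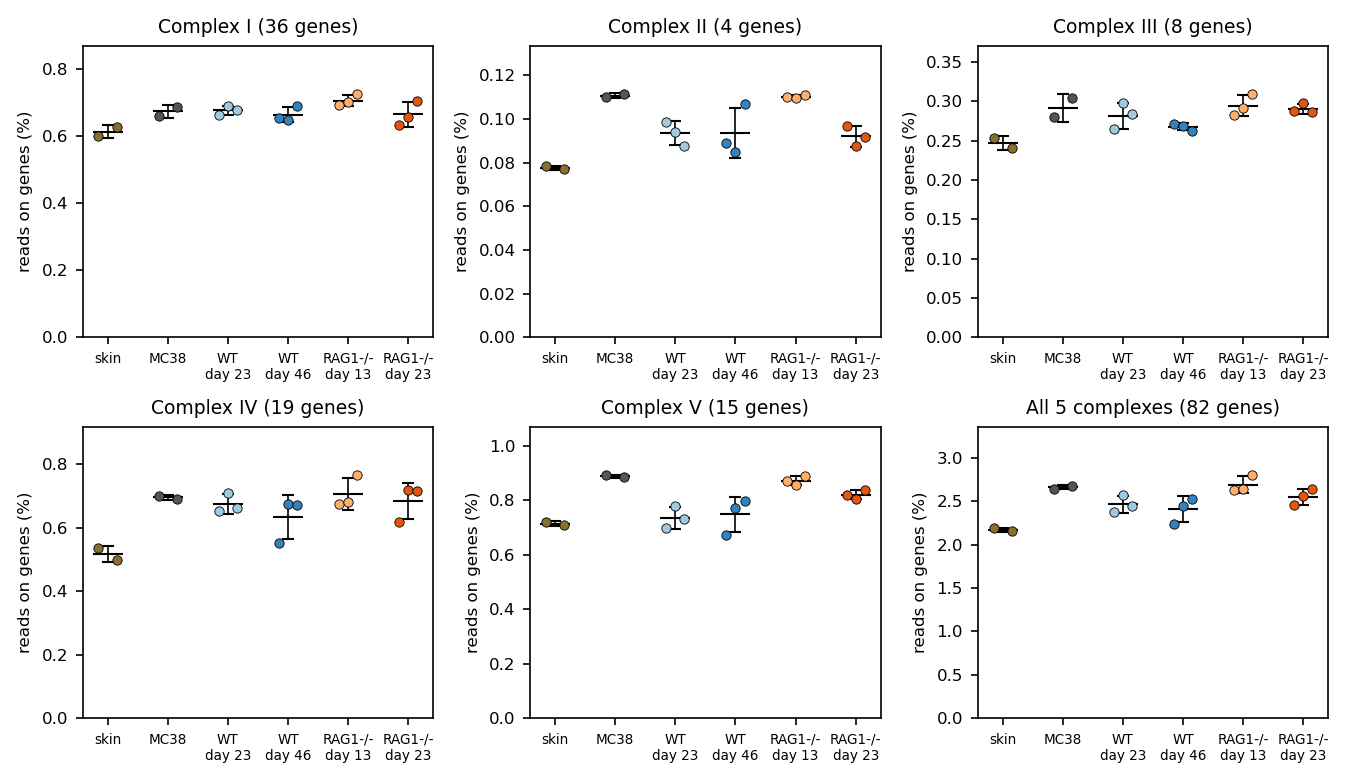
Share of all reads on genes held by the subunits of each complex, in percent, for the 16 libraries by group, with 1 point per library and bars for the mean ± SD. The shares in MC38 cells (2.64% and 2.68% over the 5 complexes) lie above those in skin (2.15% and 2.19%), and tumors run from 2.24% to 2.80%.

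The first comparison asked how MC38 cells differ from normal skin. The complex IV paralogs Cox8b, Ndufa4l2, Cox7a1, Cox6b2 and Cox4i2 had the largest differences among the members, all lower in MC38 cells, and accessory subunits of complexes I, III and V made up most of the others that were lower in MC38 cells. Few members were higher in MC38 cells, and these included the catalytic Atp5b and the acyl carrier protein Ndufab1. In limma with Benjamini-Hochberg adjustment over all genes, 88 members could be tested, of which MC38 cells had 7 at a higher and 28 at a lower level. Over all 16780 genes tested 20.8% were called higher and 41.2% lower, so both member counts lay below the background. Their median difference was -0.23 on the log2 scale, against -0.40 for all genes. Within a factor of 2 lay 74 of the 88 members and 7546 of the 16780 genes. The split depended on scaling. With the same upper quartile 15 members were higher and 14 lower, and with the same total 24 and 14. The median of all genes then moved to -0.07 and 0.04. The share of all genes called at these 2 scalings is not given here, so these counts are not read against a background. On the recovered reads edgeR called 9 higher and 22 lower, against 60.5% of genes in either direction, and DESeq2 10 and 28, against 59.7%. Under these 3 scalings and in both count tests, the same 7 members were called higher. They were Atp5b, Atp5g2, Cox6c, Cox7b2, Cox7c, Ndufab1 and Ndufb9. Likewise 14 of the 28 were called lower throughout. These were Ndufa1, Ndufa11, Ndufb11 and Ndufv3 of complex I, Uqcr11 and Uqcrh of complex III, Cox4i2, Cox6b2, Cox7a1, Cox8b, Ndufa4 and Ndufa4l2 of complex IV, Atp5e of complex V, and Atp5sl.

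**Figure D2:**
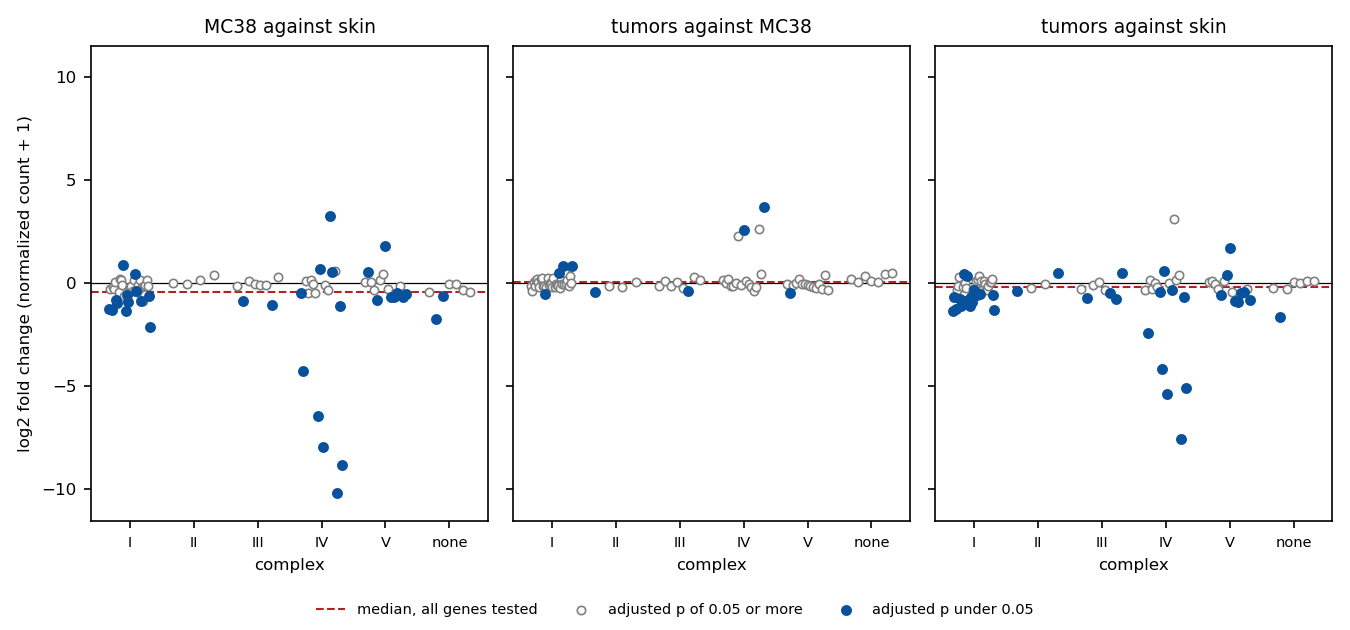
Log2 fold change of each member by complex (horizontal axis, with none for genes that encode no subunit) for MC38 cells against skin, tumors against MC38 cells and tumors against skin, with filled points for members called at an adjusted p under 0.05 in limma and a dashed line at the median of all genes. Most points lie within 1 log2 unit of 0, and the low points of complex IV are the tissue-restricted paralogs, down to -10.17 for Cox8b.

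Of complex I, 2 of 36 members were higher and 11 lower, with 9 of the lower ones among the 29 accessory subunits and 2 among the 7 core subunits. Ndufv3, an accessory subunit of the module that oxidizes NADH, had 3420 and 2606 normalized counts in skin against 724 and 662 in MC38 cells. This was a difference of -2.11 ± 0.18 (SE) on the log2 scale, with an adjusted p of 0.000646 in limma. Ndufb11, a small membrane-arm subunit, had 1610 and 1609 in skin and 559 and 714 in MC38 cells (log2 fold change -1.35 ± 0.17, limma adjusted p = 0.00205). In both genes each MC38 library lay below each skin library. Ndufab1, the mitochondrial acyl carrier protein, had 1956 and 2032 in skin and 3535 and 3919 in MC38 cells (log2 fold change 0.90 ± 0.12, limma adjusted p = 0.00264). Ndufb9, an accessory subunit of the membrane arm, rose from 3539 and 4081 to 5037 and 5333 (log2 fold change 0.45 ± 0.13, limma adjusted p = 0.0321). About 36% of the last 500 exon bases of Ndufb9 are shared with another gene model on the same strand, Gm49356. Of the core subunits Ndufs3 and Ndufv2 were lower, with log2 fold changes of -0.88 and -0.60, and the other 5 were not called. Ndufs1, which carries iron-sulfur clusters, had 1389 and 1581 in skin and 1419 and 1369 in MC38 cells. Ndufv1, which binds NADH and FMN, had 1944 and 1452 in skin and 1360 and 1694 in MC38 cells, and the groups overlapped in both genes.

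None of the 4 members of complex II was called. The flavoprotein Sdha had 3401 and 3645 in skin and 3487 and 3769 in MC38 cells, and the iron-sulfur subunit Sdhb 4651 and 2866 against 3046 and 4067. The membrane anchors Sdhc and Sdhd had 2435 to 2977 and 1557 to 1856 in skin and 2916 to 3084 and 1887 to 2740 in MC38 cells. Levels in MC38 cells overlapped those in skin for Sdha, Sdhb and Sdhc, and those of Sdhd did not.

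Of complex III, 2 of 8 members were lower. Uqcrh, the hinge protein that helps cytochrome c bind, had 7760 and 6178 in skin and 3102 and 3532 in MC38 cells (log2 fold change -1.06 ± 0.16, limma adjusted p = 0.00397). Uqcr11, the smallest of its accessory subunits, had 3065 and 2527 in skin and 1564 and 1541 in MC38 cells (log2 fold change -0.84 ± 0.14, limma adjusted p = 0.0059). Both calls held at the other scalings. The Rieske iron-sulfur protein Uqcrfs1 had 3382 and 3594 in skin and 3422 and 3199 in MC38 cells, and the core protein Uqcrc1 2276 and 1885 against 1934 and 2198, without a call.

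Among the ubiquitous subunits of complex IV, 2 of 11 were higher and 2 lower. Cox6c rose from 8847 and 10581 in skin to 15424 and 16159 in MC38 cells (log2 fold change 0.71 ± 0.14, limma adjusted p = 0.00915). Of Cox6c, 50% of the last 500 exon bases are crossed by Vps13b on the opposite strand, and whether counting used strand is not given in the sources used here. Cox7c was the other gene called higher. Ndufa4 fell from 3960 and 4030 to 2136 and 1644 (log2 fold change -1.09 ± 0.16, limma adjusted p = 0.0038). Cox4i1, the main isoform of the largest nuclear subunit, had 8841 and 8020 in skin and 6015 and 6080 in MC38 cells (log2 fold change -0.48 ± 0.12, limma adjusted p = 0.0187), and this call was lost at both other scalings. Cox5a had 5322 and 6779 in skin and 6355 and 6717 in MC38 cells, and Cox5b 6308 and 4603 against 3865 and 3967, and neither was called.

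In complex V, 2 of 15 members were higher and 6 lower, and 5 of the 6 belonged to the 7 subunits of the stalk and membrane part. None of those 5 calls held under all 3 scalings and in both count tests. The only lower member of complex V that did was Atp5e, counted here with the F1 subunits. Atp5b, the catalytic beta subunit, had 13354 and 13124 in skin and 19159 and 19830 in MC38 cells (log2 fold change 0.56 ± 0.11, limma adjusted p = 0.00953). Its partner Atp5a1, the alpha subunit, had 14367 and 11527 in skin and 13597 and 13419 in MC38 cells and was not called. Atp5e, the epsilon subunit of the central stalk, fell from 5331 and 5512 to 3012 and 3188 (log2 fold change -0.81 ± 0.11, limma adjusted p = 0.00288). Atp5j, the coupling factor of the peripheral stalk, had 3779 and 4514 in skin and 2583 and 2588 in MC38 cells (log2 fold change -0.68 ± 0.14, limma adjusted p = 0.0103), and this call was lost at both other scalings. Of the genes that encode no subunit, Atp5sl fell from 202 and 207 to 58.2 and 65.5 (log2 fold change -1.71 ± 0.23, limma adjusted p = 0.00258). Cox7a2l had 2770 and 2774 in skin and 1876 and 1709 in MC38 cells (log2 fold change -0.63 ± 0.12, limma adjusted p = 0.0084), also without a call at the other scalings.

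With 2 libraries a group, calls were sensitive to each of them. Without skin library 1 or 2, or without MC38 library 1 or 2, between 1 and 4 members were higher and 13 to 16 lower, where the lone sample is assumed to vary like the other group. Of the members named here, Ndufv3, Uqcr11, Cox4i2, Cox6b2, Cox8b, Ndufa4l2, Atp5e and Atp5sl kept their calls whichever library was left out. Calls of Atp5b, Atp5g2, Ndufb9 and Cox7a2l were lost whichever of the 4 was left out, with adjusted p of up to 0.0994, 0.167, 0.212 and 0.0991. Those of Ndufab1, Ndufb11, Ndufa4 and Cox7a1 were lost without either skin library, with adjusted p of up to 0.0565, 0.0824, 0.112 and 0.115. The call of Uqcrh was lost without skin library 1 (adjusted p = 0.0678). Atp5j and Cox7b2 lost theirs without either MC38 library, and Cox4i1 and Cox6c did so without either MC38 library or skin library 1.

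Of the tissue-restricted paralogs of complex IV, 5 had their highest levels in the skin libraries, whereas Cox6a2 was present at similar levels in all groups. Cox8b (chr7:140898945-140900446) had 1017 and 1295 normalized counts in skin, no read in the 2 MC38 libraries and 0 to 134 in tumors. Its level was at least 420-fold lower in MC38 cells, taking 3 reads per library as the floor (limma adjusted p = 0.000119). In skin Cox8b held 10.3% and 17.6% of the joint 3′ counts of Cox8a and Cox8b, in MC38 cells 0%, with exact 95% upper limits of 0.0293% and 0.0321%, and in tumors up to 1.19%. The highest tumor values, 64.2 and 134, belonged to tumors 1 and 3 labelled RAG1-/- of day 13, those with the highest muscle marker sums, and the other tumors had 16.8 or less. The part of muscle RNA in these levels was not tested. Of the 12 muscle markers all 12 were lower in MC38 cells than in skin, and Atp2a1, Mb, Myh1, Myh2 and Pvalb had no read in MC38 cells.

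Cox7a1 (chr7:30184144-30186078) had 549 and 776 in skin, 0 and 5.87 in MC38 cells and 5.24 to 34.9 in tumors. On 6 reads in MC38 cells the ratio of skin to MC38 cells was 226, with a 95% counting interval of 104 to 616 (limma log2 fold change -7.96 ± 0.96, adjusted p = 0.00187). It held 8.95% and 13.9% of the joint counts with Cox7a2 in skin and at most 0.601% elsewhere. Skin lay above all other libraries. Ndufa4l2 (chr10:127514967-127517154) had 514 and 729 in skin, a single read in MC38 cells and 5.56 to 48.9 in tumors. The skin to MC38 ratio was 1453 with a counting interval of 261 to 57408 (limma adjusted p = 0.000209). Relative to Ndufa4 it held 11.5% and 15.3% in skin, 0.04% and 0% in MC38 cells and 0.217% to 1.97% in tumors.

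Cox6b2 (chr7:4751792-4753094) had 95.1 and 77.8 in skin, no read in MC38 cells and 0 to 22.8 in tumors, and was at least 31.4-fold lower in MC38 cells than in skin (limma adjusted p = 0.000313). Cox4i2 (chr2:152754173-152765037) was low, with 40.2 and 7.65 in skin, no read in MC38 cells and up to 6.71 in tumors. It was at least 8.70-fold lower in MC38 cells (limma adjusted p = 0.00971), with a wide gap between the 2 skin libraries. Adipocyte markers moved along with these paralogs: their sum over 9 genes was 23328 and 26778 in skin, 18.6 and 27.4 in MC38 cells and 276 to 1101 in tumors, with Adipoq, Cfd, Lep and Plin1 at no read in MC38 cells. Ucp1, the defining gene of brown fat, had 0 and 6.37 normalized counts in skin. Only 1 of 6 brown fat markers stayed below 5 normalized counts in both skin libraries. In MC38 cells against skin 4 of them could be tested, with 0 higher and 3 lower, where 41.2% of all genes were lower. In tumors against skin 3 could be tested, with 0 higher and 2 lower, where 36.3% of all genes were lower. The part of fat cells in these levels was not tested.

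Cox6a2 (chr7:128205435-128206387), the muscle and heart partner of Cox6a1, showed no such pattern. It had 1222 and 1659 normalized counts in skin, 1497 and 1321 in MC38 cells and 682 to 1709 in tumors, and was called in none of the comparisons with skin or MC38 cells. Its share of the joint counts with Cox6a1 was 12.9% and 24.6% in skin, 17.0% and 15.7% in MC38 cells, and 7.63% to 28.6% in tumors. In MC38 cells, where 10 of the 12 muscle markers were below 5 normalized counts, its level lay within the range of the skin libraries. About 14% of its last 500 exon bases are crossed by Itgad on the opposite strand, and reads of the pair cannot be told apart where counting ignores strand. Cox7b2 (chr5:71442824-71548205) was the only one of the 7 restricted paralogs tested that was higher in MC38 cells, with 18.8 and 15.6 against 0 and 2.55 in skin. On 2 reads in skin the ratio was 13.5 with a counting interval of 3.74 to 112 (limma adjusted p = 0.0141). It stood at 1.34 to 28.9 in 10 tumors, at 74.2 in WT tumor 2 of day 23 and at 407 in WT tumor 3 of day 46. Cox8c had 1 read over the 16 libraries and was not tested.

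**Figure D3:**
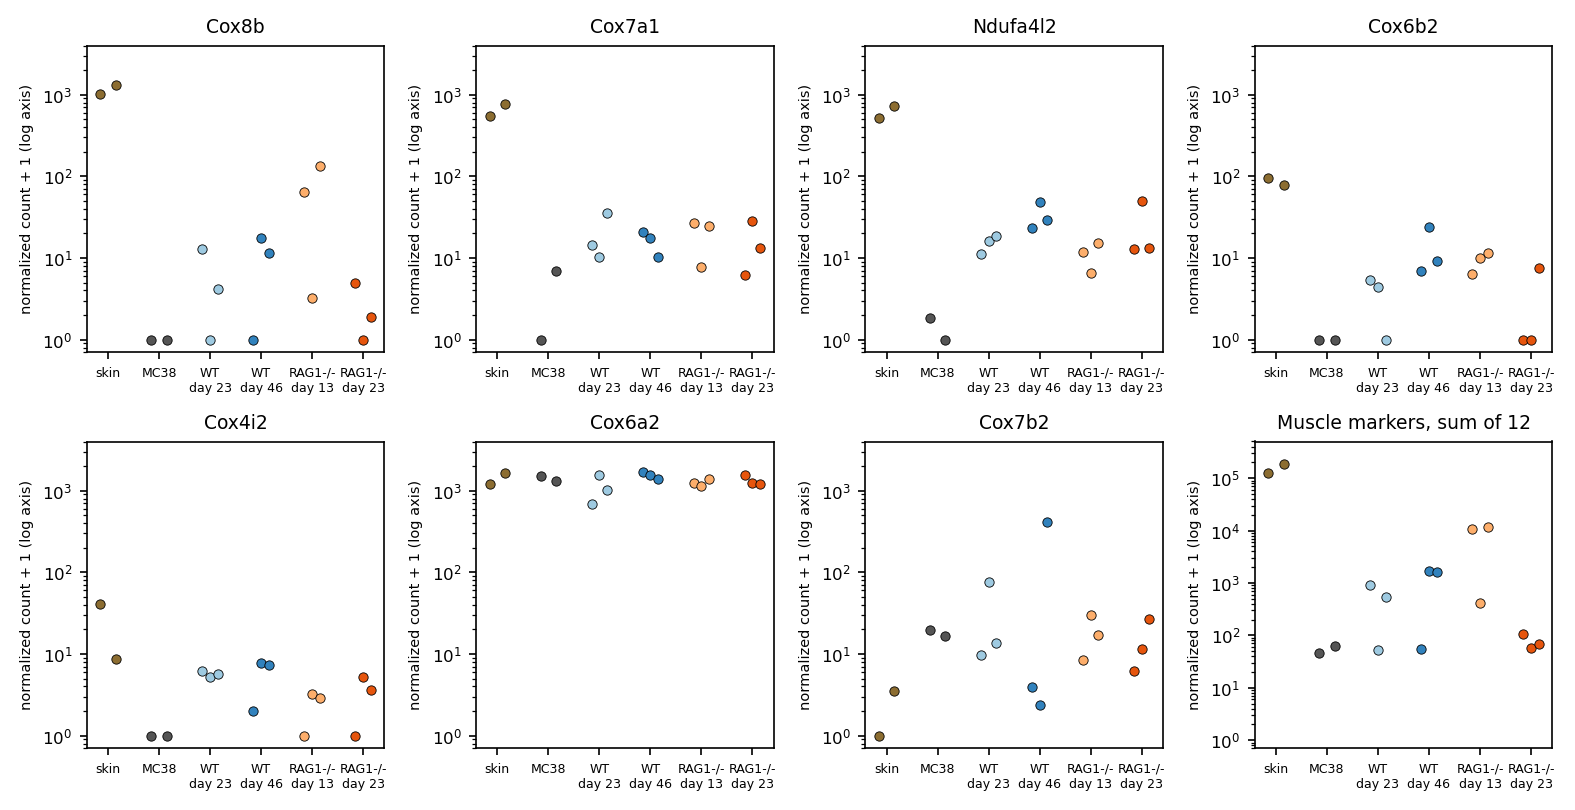
Normalized counts of the tissue-restricted complex IV paralogs and the summed level of 12 skeletal muscle markers in each library, by group, on a log axis of the value plus 1. Cox8b, Cox7a1, Ndufa4l2 and Cox6b2 are highest in the 2 skin libraries, Cox6a2 lies between 682 and 1709 in every library, and the muscle sum is high in skin and in 2 tumors labelled RAG1-/- of day 13.

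The c subunit of complex V is encoded by 3 paralogs that yield the same mature protein. Atp5g3 held 89.8% and 90.3% of their joint counts in skin, 86.0% and 82.7% in MC38 cells and 80.7% to 87.9% in tumors. Atp5g1 held 10.2% and 9.70% in skin, 13.8% and 17.0% in MC38 cells and 11.9% to 18.9% in tumors. Its share in all MC38 and tumor libraries exceeded that in both skin libraries. Atp5g2 held 0.348% or less everywhere, with 28.1 and 10.2 normalized counts in skin, 53.0 and 72.3 in MC38 cells and 44.0 to 85.1 in tumors. The count of Atp5g2 is uncertain, since 93.3% of the reads it shares with near-identical copies were assigned to the pseudogenes Gm10175 and Gm10231. Together with these copies Atp5g2 reached 390 and 407 in skin, 716 and 634 in MC38 cells and 602 to 1089 in tumors. The log2 fold change between MC38 cells and skin was 1.80 ± 0.56 for Atp5g2 alone (limma adjusted p = 0.0421) and 0.76 with the copies (limma adjusted p = 0.0101).

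Similar copies affected other members. Over the last 300 transcript bases, 22 of the 89 members shared at least 10% of their 40-base words with another gene. In 7 of them the copies held over 10% of the joint reads and in 3 over 50%. Besides Atp5g2 these were Ndufs5, with 76.9% of the joint reads on BC002163, and Atp5l, with 76.2% on its copies. Their own counts, 18.3 to 60.2 for Ndufs5 and 296 to 731 for Atp5l, were low beside those of most ubiquitous subunits. Adding the copies of these 7 members changed none of the counts of called members in any comparison.

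**Figure D4:**
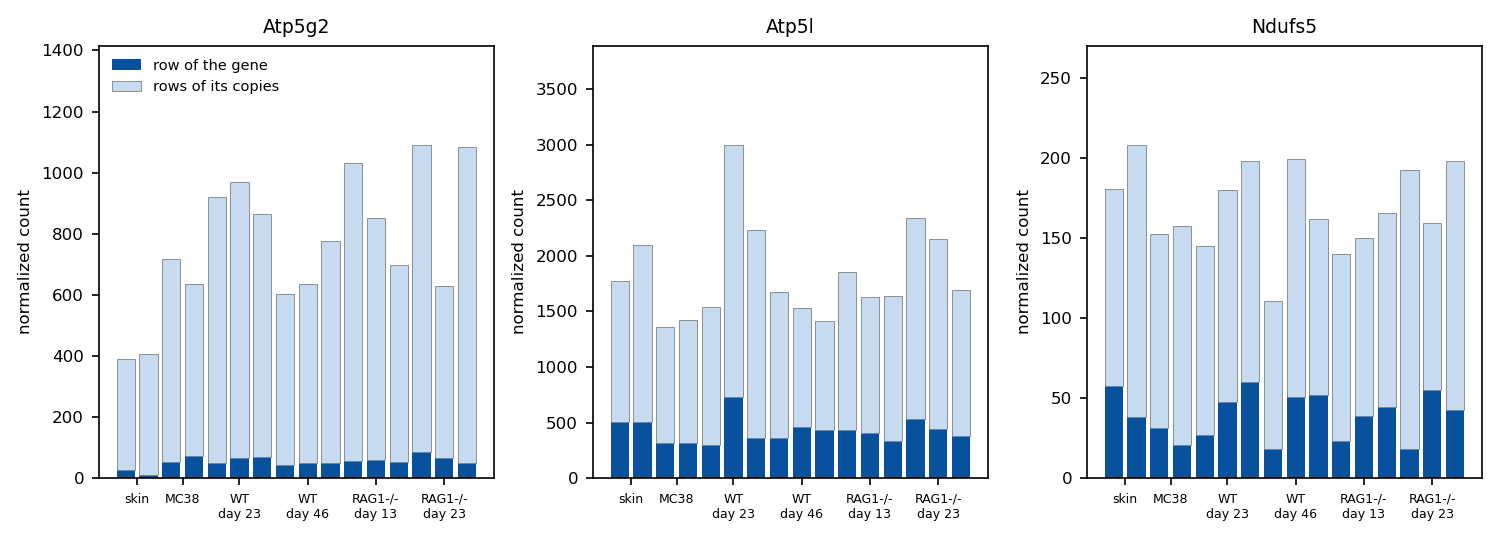
Normalized counts of the 3 members whose near-identical copies hold over 50% of the joint reads, as stacked bars for the gene's own row and the rows of its copies in each library, by group. Atp5g2 stays at or below 85.1 alone and reaches 390 to 1089 with its copies.

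The second comparison asked what changed when MC38 cells grew as tumors. Few members moved. In limma 5 of 87 members were higher and 4 lower in tumors, while 18.2% of all 14708 genes were higher and 9.43% lower. The median difference was -0.02 over the members and 0.05 over all genes, and 83 of the 87 members were within a factor of 2. The counts were 5 and 4 with the same upper quartile and 5 and 5 with the same total. For these scalings the share of all genes called is not given. The counts were 5 and 5 in edgeR, against 27.4% of genes in either direction, and 8 and 5 in DESeq2, against 29.7%.

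Ndufv3 had 724 and 662 in MC38 cells and a median of 1242 in the 12 tumors, with a lowest of 840 and a highest of 1654. All tumors lay above both MC38 libraries (log2 fold change 0.83 ± 0.15, limma adjusted p = 0.000394). They also lay below both skin libraries, with a log2 fold change of -1.28 ± 0.16 against skin (limma adjusted p = 7.08e-06). Ndufs3, a core subunit of the arm that reaches into the matrix, had 205 and 189 in MC38 cells and 284, 319 and 463 as the lowest, median and highest tumor (log2 fold change 0.83 ± 0.19, limma adjusted p = 0.00284). Of the joint reads of Ndufs3 and its copy Gm12251, 13.3% lay on the copy. Ndufc2, of the membrane arm, was also called higher, with groups that overlapped. Ndufa4l2 had 0.856 and 0 in MC38 cells and a lowest, median and highest of 5.56, 14.8 and 48.9 in tumors, a ratio of 47.6 on 1 read with a counting interval of 8.55 to 1881 (limma adjusted p = 5.78e-05). For Cox7a1, the lowest and highest tumor had 5.24 and 34.9 against 0 and 5.87 in MC38 cells. Its log2 fold change was 2.59 ± 0.72 (limma adjusted p = 0.0122), but it was not called in edgeR (adjusted p = 0.0682) or without MC38 library 1 (adjusted p = 0.416).

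Lower in tumors were Ndufab1, Sdha, Uqcrfs1 and Atp5b. Ndufab1 had 3535 and 3919 in MC38 cells and 2007, 2646 and 3046 as the lowest, median and highest tumor (log2 fold change -0.53 ± 0.13, limma adjusted p = 0.00458). Atp5b had 19159 and 19830 in MC38 cells and 12378, 13846 and 16647 in tumors (log2 fold change -0.46 ± 0.13, limma adjusted p = 0.0121). For Sdha the tumors had 2334, 2603 and 3403 against 3487 and 3769 in MC38 cells (log2 fold change -0.43 ± 0.13, limma adjusted p = 0.0168). These 3 genes were below both MC38 libraries in every tumor. Uqcrfs1 had 1925, 2514 and 3422 in tumors against 3422 and 3199 in MC38 cells, where the groups overlapped (log2 fold change -0.39 ± 0.14, limma adjusted p = 0.0465).

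Most of these calls depended on the 2 MC38 libraries. Without MC38 library 1, 3 members were higher and 1 lower, and without library 2, 3 were higher and 0 lower. Ndufv3 and Ndufa4l2 kept their calls whichever library was left out. The calls of Atp5b, Sdha and Uqcrfs1 were lost without either MC38 library, with adjusted p of up to 0.149, 0.213 and 0.298, and those of Ndufab1 and Ndufs3 without library 2 (adjusted p = 0.122 and 0.0691). Uqcrfs1 also lost its call without any of 6 single tumors, with adjusted p of up to 0.0667. The tumors also held host RNA. Sums of 8 leukocyte markers were 114 and 131 in MC38 cells and 11336 to 22722 in tumors, all 8 higher, and sums of 6 fibroblast markers were 4955 and 5649 in MC38 cells and 13559 to 48534 in tumors. Whether the members called here moved with the host cells was not tested.

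The third comparison set the tumors against skin, the tissue at the site of growth. It shares its skin libraries with the first comparison and its tumors with the second, so it adds no independent evidence to either. Among the members called, the largest differences again belonged to Cox8b, Cox7a1, Ndufa4l2, Cox6b2 and Cox4i2. In limma 7 of 88 members were higher and 33 lower in tumors, against 24.4% and 36.3% of 16259 genes. Medians were -0.26 over the members and -0.19 over all genes. With the same upper quartile 19 members were higher and 19 lower, and with the same total 29 and 18. The median of all genes then moved to 0.12 and 0.22. These counts too are given without the share of all genes called, and are not read against a background. The count test of edgeR gave 10 higher and 24 lower, against 59.8% of genes in either direction, and that of DESeq2 10 and 33, against 59.2%. Called under the 3 scalings and in both count tests were the same 7 higher members and 18 of the lower ones. The higher members were Atp5g1, Atp5g2, Cox6c, Ndufa7, Ndufab1, Sdhd and Uqcrq.

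Of complex I, 2 of 36 members were higher and 14 lower, 13 of the latter accessory subunits. Ndufa1, a small accessory subunit of the membrane arm that is needed for assembly, had 4338 and 4740 in skin and 1403, 1818 and 2054 as the lowest, median and highest tumor (log2 fold change -1.35 ± 0.12, limma adjusted p = 3.77e-07). All tumors and both MC38 libraries, with 2180 and 1726, lay below skin. Ndufa7 was higher in tumors, with 3290, 3689 and 4210 against 3078 and 2349 in skin (log2 fold change 0.45 ± 0.12, limma adjusted p = 0.00492). The core subunits Ndufs1 and Ndufv1 were again not called, with medians of 1307 and 1992 in tumors.

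In complex II the membrane anchor Sdhd was higher (limma log2 fold change 0.50 ± 0.19, adjusted p = 0.0352) and Sdha lower (log2 fold change -0.39 ± 0.12, adjusted p = 0.0132), although the latter turned to 0.01 with the same total. In both genes tumors and skin overlapped, and the highest Sdhd levels were those of the RAG1-/- tumors of day 13. Of complex III, 1 of 8 members was higher and 3 lower. Uqcrh had 3160, 4110 and 4688 in tumors against 7760 and 6178 in skin (log2 fold change -0.77 ± 0.13, limma adjusted p = 0.00014). For Uqcr11 the tumors had 1326, 1679 and 2133 against 3065 and 2527 (log2 fold change -0.73 ± 0.12, limma adjusted p = 0.000151). In both genes every tumor lay below both skin libraries. Uqcrq, a small subunit near the ubiquinone site, was the member called higher, with groups that overlapped.

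Complex IV had 1 member higher and 8 lower of 18 tested, and 5 of the 8 were tissue-restricted paralogs. Cox8b had a ratio of skin to tumors of 55.9 with a counting interval of 49.6 to 63.3 (limma log2 fold change -7.55 ± 1.27, adjusted p = 0.000135). This ratio rested on the muscle-rich tumors: it was 112 without RAG1-/- tumor 3 of day 13 and 234 without tumors 1 and 3, a spread that the counting interval does not cover. Cox7a1 had a log2 fold change of -5.37 ± 0.61 (limma adjusted p = 3.52e-06), Ndufa4l2 of -5.09 ± 0.51 (limma adjusted p = 9.93e-07), Cox6b2 of -4.15 ± 0.77 (limma adjusted p = 0.000333) and Cox4i2 of -2.42 ± 0.73 (limma adjusted p = 0.0105). Without the 2 muscle-rich tumors, 5 members were higher and 30 lower. Cox6c had 11644, 15318 and 18200 in tumors, all above the 8847 and 10581 of skin (log2 fold change 0.62 ± 0.18, limma adjusted p = 0.00789).

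In complex V the subunits of the peripheral stalk led the lower members. Atp5j had 1744, 2144 and 2925 in tumors against 3779 and 4514 in skin (log2 fold change -0.90 ± 0.13, limma adjusted p = 4.13e-05). Atp5h, subunit d of the stalk, had 2384, 3471 and 4058 against 6723 and 5514 (log2 fold change -0.85 ± 0.15, limma adjusted p = 0.000156). Every tumor was below both skin libraries in these genes. Of the c subunit genes, Atp5g1 had 2922, 4042 and 4347 in tumors and 3187 and 2509 in skin (log2 fold change 0.42 ± 0.16, limma adjusted p = 0.0373), with overlap, and Atp5g2 had a log2 fold change of 1.70 ± 0.35 (limma adjusted p = 0.000665), or 1.06 with its copies. The beta and alpha subunits Atp5b and Atp5a1 were not called, with tumor medians of 13846 and 13994. Atp5sl was lower in tumors, with 49.8, 59.8 and 117 against 202 and 207 (log2 fold change -1.64 ± 0.35, limma adjusted p = 0.000922).

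Leaving out single libraries left 3 to 10 members higher and 26 to 36 lower. Without skin library 2, where 3 were higher, Ndufa7, Atp5g1, Sdha and Uqcrfs1 lost their calls (adjusted p = 0.114, 0.375, 0.0956 and 0.0871) and Ndufa4 lost its call as well (adjusted p = 0.0547). Without skin library 1, where 4 were higher, Cox6c and Cox6b1 lost theirs (adjusted p = 0.122 and 0.727). Atp5g1 and Cox6b1, which stood near the threshold, also lost theirs without several single tumors. The calls named above for Ndufa1, Ndufv3, Uqcr11, Uqcrh, Atp5j, Atp5h, Atp5g2, Atp5sl and the 5 restricted paralogs held whichever library was left out.

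The remaining comparisons asked whether the immune status of the host or the age of the tumor went with a change in the chain. No member was called in limma, at any of the scalings, or in edgeR. At day 23, WT against RAG1-/-, 0 of 87 members were called, against 0.278% of 14746 genes in limma. At an unadjusted p under 0.05, 2 members were higher and 7 lower in WT tumors, against 11.2% of all genes. Over both days, 0 members were called against 0.712% of genes, and 1 was higher and 9 were lower at an unadjusted p under 0.05, against 11.4% of genes. For WT day 46 against day 23, 2 were higher and 5 lower at that level, against 8.55% of genes. For RAG1-/- day 23 against day 13, 5 were higher and 6 lower, against 11.7%. In the latter pair of comparisons limma called 0% of all genes. Groups did not overlap for 4 members higher and 9 lower at day 23 (16.1% of all genes), for 0 and 1 over both days (0.983%), for 5 and 7 in WT day 46 against day 23 (12.5%) and for 11 and 8 in RAG1-/- day 23 against day 13 (19.4%). Over all genes edgeR called 0.149%, 0.753%, 0% and 0% in these comparisons. DESeq2 on the recovered reads called 1 member in each of the last 3 comparisons and none between hosts at day 23, where it called 1.62% of genes.

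Atp5j had the smallest p between hosts. It had 1744, 2332 and 2016 in WT tumors of day 23 and 1902, 1777 and 2002 at day 46. In tumors labelled RAG1-/- it had 2264, 2025 and 2598 at day 13 and 2489, 2875 and 2925 at day 23. At day 23 each WT tumor lay below each RAG1-/- tumor (log2 fold change -0.45 ± 0.15, limma adjusted p = 0.25). Over both days the groups overlapped (log2 fold change -0.36 ± 0.10, limma adjusted p = 0.168). DESeq2 put the same difference at an adjusted p of 0.0487, where it called 1.92% of genes.

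Negative log2 fold changes over both days, without a call, were found for 58 of the 87 members, against 7219 of 14746 genes. They were 13 of 15 in complex V, 11 of 11 ubiquitous subunits of complex IV, 7 of 8 in complex III, 20 of 36 in complex I, and 11 of 13 tricarboxylic acid cycle genes, so complex V was not alone in this. The hosts pooled in this way also differ in tumor age, with days 23 and 46 in WT and days 13 and 23 in RAG1-/-, and host and age cannot be told apart in the pooled values. Atp5g3, which carries most c subunit RNA, had 14070 to 20501 normalized counts in WT tumors and 20261 to 24156 in tumors labelled RAG1-/- (log2 fold change -0.35 ± 0.12, limma adjusted p = 0.256). The complex V sum, of which Atp5g3 is a part, was 76149 to 95025 in WT tumors and 93227 to 98831 in tumors labelled RAG1-/-, with overlap. As a share of reads the complex V sum was 0.673% to 0.798% in WT and 0.803% to 0.889% in RAG1-/- tumors. These shares did not overlap, by a narrow gap, and MC38 cells had 0.884% and 0.892%. At day 23 alone, where the ages match, the WT tumors had 0.698%, 0.779% and 0.730% and the RAG1-/- tumors 0.821%, 0.803% and 0.836%. Shares of the other complexes by host are not set beside these, so nothing particular to complex V is read from them. Among single genes, groups did not overlap in 16.1% at day 23 and in 0.983% over both days. Neither a sum over chosen genes nor the part of Atp5g3 in it was tested. Atp5o, which joins the stalk to the catalytic head, was the only member whose 6 WT tumors all lay below the 6 others, with 3128 to 3775 against 3797 to 4268 (limma adjusted p = 0.351), where groups did not overlap in 0.983% of all genes. It was picked after its values were seen. Leukocyte marker sums differed between hosts as well, with 15484 to 22722 in WT tumors and 11336 to 18369 in tumors labelled RAG1-/-, and their part in these values was not tested.

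Ndufv3 had the smallest p of complex I between hosts over both days. In tumors labelled RAG1-/- it had 840, 874 and 921 at day 13 and 1262, 1126 and 1594 at day 23 (log2 fold change 0.58 ± 0.17, limma adjusted p = 0.235). WT tumors had 1222, 1408 and 1537 at day 23 and 1179, 1488 and 1654 at day 46. The day 13 tumors were the lowest of the 12 and the nearest to MC38 cells. Over both days the host difference was 0.39 ± 0.12 on the log2 scale (limma adjusted p = 0.193), and at day 23, with the hosts at the same age, the groups overlapped. Ndufa12, an accessory subunit of the matrix arm, had 1689, 2179 and 2023 in WT tumors and 2846, 2166 and 2885 in RAG1-/- tumors of day 23 (log2 fold change -0.42 ± 0.16, limma adjusted p = 0.34).

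Ndufb4, an accessory subunit of the membrane arm, had the smallest p with age in WT hosts. It had 1298, 1338 and 1218 at day 23 and 829, 704 and 821 at day 46 (log2 fold change -0.71 ± 0.15, limma adjusted p = 0.385). All day 46 tumors were below all day 23 tumors, and DESeq2 called the difference at an adjusted p of 0.00675, as it did 0.278% of genes. Tumors labelled RAG1-/- had 1252, 1340 and 1243 at day 13 and 926, 1194 and 889 at day 23. At day 23 the WT tumors lay above the RAG1-/- tumors (log2 fold change 0.37 ± 0.15, limma adjusted p = 0.355). Cox7c had 6121, 8462 and 8271 in WT tumors of day 23 and 3054, 6060 and 5637 at day 46 (log2 fold change -0.68 ± 0.22, limma adjusted p = 0.444). Ndufb6 had 2040, 2718 and 2288, then 1944, 1894 and 1578 (log2 fold change -0.38 ± 0.14, limma adjusted p = 0.506). Neither gene overlapped between the days. Of Ndufb6, 51.4% of the last 500 exon bases are crossed by Smim27 on the opposite strand.

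In tumors labelled RAG1-/- the smallest p with age belonged to Ndufb10, another membrane-arm subunit. It had 1715, 1884 and 1996 at day 13 and 1074, 1430 and 1279 at day 23 (log2 fold change -0.57 ± 0.14, limma adjusted p = 0.172), and DESeq2 called it at an adjusted p of 0.015, as it did 1.40% of genes. Sdhd had 3361, 3459 and 3454 at day 13 and 1520, 2841 and 1950 at day 23 (log2 fold change -0.75 ± 0.20, limma adjusted p = 0.208). WT tumors had 1295 to 1416 of Ndufb10 and 1559 to 2694 of Sdhd, so the day 13 tumors were the highest of the 12 in both genes. Without the 2 muscle-rich tumors, which are both of day 13, this comparison has a lone day 13 tumor, and limma called no member.

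**Figure D5:**
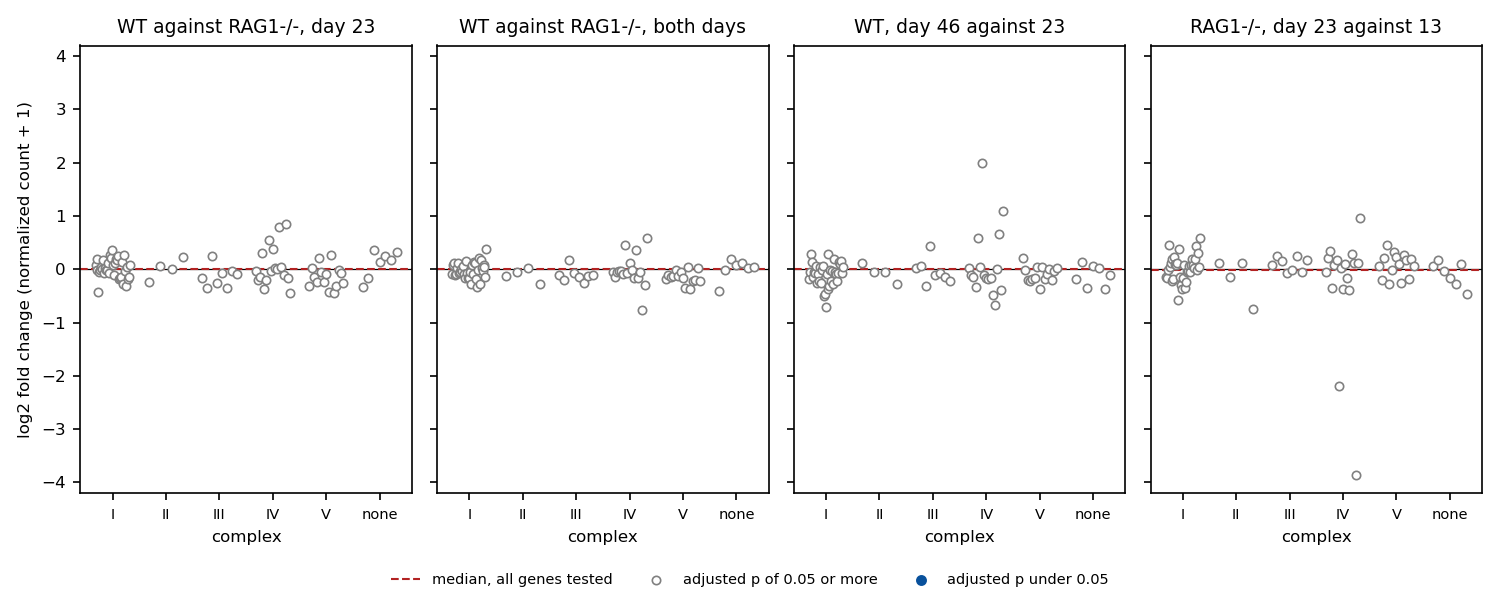
Log2 fold change of each member by complex for the comparisons between tumor groups, WT against RAG1-/- at day 23 and over both days, day 46 against day 23 in WT and day 23 against day 13 in RAG1-/- hosts. No member was called in limma, so all points are open, and the lowest, at -3.86 in RAG1-/- day 23 against day 13, is Cox8b.

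Other genes that build and feed the chain were counted in the same fits. Of 41 assembly factors, 17 were higher and 7 lower in MC38 cells than in skin, with a median of 0.46, against 20.8% and 41.2% of all genes and a median of -0.40. With the same total, 25 were higher and 5 lower, with a median of 0.87. That scaling also raised the median of all genes, so the move from 0.46 to 0.87 is not read as a property of the list. The list median lay above that of all genes at both scalings. Uqcc1, an assembly factor of complex III, had a log2 fold change of 1.63 ± 0.16 (limma adjusted p = 0.00106), and Sco2, which delivers copper to complex IV, of 1.43 ± 0.16 (limma adjusted p = 0.0016). Atpaf1, which helps assemble the F1 head of complex V, was lower, at -5.89 ± 0.63 (limma adjusted p = 0.00135). No counting interval is given for this fold, and 2 of the 41 assembly factors stayed below 5 normalized counts in both MC38 libraries. Of the 13 tricarboxylic acid cycle genes 5 were higher and 4 lower, and of the 14 genes of cytochrome c and coenzyme Q synthesis 1 was higher and 4 lower. In tumors against skin the counts were 16 higher and 7 lower of 41, 3 and 4 of 13, and 1 and 6 of 14. Over all genes 24.4% were higher and 36.3% lower. With the same total the list counts were 26 and 3, 8 and 3, and 3 and 3. In MC38 cells against skin the same total gave 7 higher and 1 lower of 13, and 4 and 2 of 14. The share of all genes called with the same total is not given here. In tumors against MC38 cells the list counts were 3 and 4 of 40, 0 and 4 of 13, and 0 and 0 of 14. There 18.2% of all genes were higher and 9.43% lower.

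Of 19 regulators of mitochondrial biogenesis tested, 3 were higher and 3 lower in MC38 cells than in skin, against 20.8% and 41.2% of all genes. In tumors against skin 5 were higher and 3 lower, against 24.4% and 36.3% of all genes. With the same total, which also raised the median of all genes, the counts were 9 and 2 in each. Ppargc1a, the coactivator known to drive mitochondrial biogenesis in muscle and brown fat, had 205 and 186 normalized counts in skin, 16.3 and 13.7 in MC38 cells and 0 to 3.77 in tumors. The fall from skin to MC38 cells was -3.62 ± 0.29 on the log2 scale (limma adjusted p = 0.000582). Tfam, which packages and transcribes the mitochondrial genome, had a log2 fold change of 0.75 ± 0.14 between MC38 cells and skin (limma adjusted p = 0.00825) and of 0.58 ± 0.17 between tumors and skin (limma adjusted p = 0.00771). Of 13 genes of the mitochondrial genome 9 could be tested in MC38 cells against skin, with 1 higher and 3 lower, and 8 in tumors against skin, with 0 higher and 2 lower. With the same total, 2 were higher and 0 lower of 8 in MC38 cells against skin, and none was called in tumors against skin. Their summed share of reads was 2.49% and 2.61% in skin, 3.27% and 3.53% in MC38 cells and at most 3.43% in tumors. The lowest tumor share is not given here. Their median log2 fold change was -0.34 in tumors against skin, or 0.05 with the same total. In tumors against MC38 cells it was -0.26, or -0.28 with the same total, over 8 genes tested. However, 3′ priming captures these transcripts unevenly, and 4 of the 13 stayed below 5 normalized counts in both skin libraries. None of these 5 lists had a call between tumor groups.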

How the data were processed

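RNA of 16 libraries was made with 3′ QuantSeq kits and sequenced on Ion Proton. Per the labels, the authors used cutadapt, Trimmomatic, STAR, Bowtie2, HTSeq and DESeq2 on mm10. Versions, annotation and strand setting are not given in the sources used here. The deposited values are a signal, read counts per gene divided by DESeq2 size factors, and 100% of them gave whole reads within 0.001. Since these are normalized counts, log2(value + 1) was tested with limma 3.58.1 (trend, R 4.3.3) keeping genes whose mean over the libraries compared was 5 or more, with Benjamini-Hochberg adjustment over all genes and a threshold of 0.05, two-sided. Tumor groups shared 1 fit. edgeR 4.0.16 and DESeq2 1.42.0 on the recovered reads served as alternatives. They called 10160 and 10016 genes for MC38 cells against skin, 4033 and 4371 for tumors against MC38 cells, 9718 and 9630 for tumors against skin, 22 and 239 for WT against RAG1-/- at day 23, 111 and 283 over both days, 0 and 41 for WT day 46 against day 23, and 0 and 206 for RAG1-/- day 23 against day 13. Methods were tested on simulated data. GENCODE's annotation of GRCm38, of which mm10 is another name, gave positions and copies. Replicates of a group differed by more than sampling noise (chi-square per degree of freedom 9.03 to 96.3). The 6 columns of an antibody comparison were not used. Members, lists and named genes (fixed roles in each complex, the paralogs, and the leading calls in each comparison) were chosen with earlier results of these data known, and other called members were named after their values were seen.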

Additional observations from a re-analysis of the deposited data

Results flagged for a closer look

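Within the 6 WT or the 6 RAG1-/- tumors, 13 of 122 groups of values had a highest or lowest tumor whose gap to the nearest other exceeded 0.625 of the range (Dixon's criterion), where chance gives about 1 in 20. Of these, 6 fell on RAG1-/- tumor 2 of day 23, the library with the fewest reads on genes (5589151). There Atp5sl had 117 normalized counts against 71.7 or less in the other RAG1-/- tumors, Ndufa4 3907 against 2415 to 2879, Ndufa4l2 48.9 against 5.56 to 14.3, and Ndufs3 419 against 289 to 321, while Sdhb was low with 2643 against 3291 to 3456. The share of Ndufa4l2 in its joint counts with Ndufa4 was also highest there, with 1.24% against 0.217% to 0.510%, on 23 reads of Ndufa4l2. Shares reuse the counts of their genes, so the flags are not independent. RAG1-/- tumor 1 of day 23 had 9537 of Cox5a against 6151 to 6924 and only 3884 of Cox6a1 against 6881 to 8325, so its Cox6a2 share reached 28.6% against 13.4% to 15.3%. WT tumor 2 of day 46 had 22.8 of Cox6b2 against 0 to 8.16, a share of 0.372% against 0 to 0.128%. WT tumor 3 of day 46 had 407 of Cox7b2 against 1.34 to 74.2. In WT tumor 1 of day 46 Uqcrh was lowest, with 3160 against 3945 to 4172.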

How the results depend on the processing

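Scaling mattered most in the comparisons with skin. Counts of members below are given without the share of all genes called at each setting. For MC38 cells against skin, 15 members were higher and 14 lower with the same upper quartile, 24 and 14 with the same total, and 3 and 16 without limma's trend, while a pseudocount of 0.1 gave 4 higher. Leaving out single libraries gave 1 to 4 higher and 13 to 16 lower. For tumors against MC38 cells, 3 were higher with a mean of at least 20 and 8 in DESeq2, and 3 to 7 were higher and 0 to 5 lower without single libraries. For tumors against skin, 19 were higher and 19 lower with the same upper quartile, 29 and 18 with the same total, and 3 to 10 were higher without single libraries. Sdha in tumors against skin turned to 0.0087 on the log2 scale with the same total (limma adjusted p = 0.958). DESeq2 called 1 member lower in WT against RAG1-/- over both days, in WT day 46 against day 23 and in RAG1-/- day 23 against day 13. Summed levels of MC38 cells relative to skin, with the same upper quartile and the same total, were 1.14 and 1.23 over the 5 complexes, 1.02 and 1.10 for complex I, 1.33 and 1.42 for II, 1.10 and 1.18 for III, 1.25 and 1.35 for IV and 1.16 and 1.24 for V. Those of tumors relative to skin were 1.09 and 1.17 over all, 1.04 and 1.11 for I, 1.17 and 1.25 for II, 1.07 and 1.15 for III, 1.22 and 1.31 for IV and 1.04 and 1.11 for V. Of the values of single genes, 1268 kept their direction and side of the threshold, 106 lost the call, 3 gained one and 1 reversed. The replicate numbers showed no sign of pairing among the tumors. Correlations of same-numbered tumors ran from -0.236 to 0.246 and those of differently numbered tumors from -0.213 to 0.201. Between MC38 cells and skin, with 2 libraries a group, the correlations mirror each other and cannot decide this. With a replicate block the counts higher and lower were 9 and 30 for MC38 cells against skin, 5 and 3 for tumors against MC38 cells, 6 and 32 for tumors against skin, and 0 otherwise. Adding the reads of copies, leaving out the muscle-rich tumors and rescaling the pathway lists were chosen after seeing the data. Depth limits the paralogs, whose 3-read floor was 1.33 to 6.38 normalized counts.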
